A study of Caenorhabditis elegans with 139 samples.

Results

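In Caenorhabditis elegans 3 ribosomal protein names have 2 genes each in the deposited gene table, and these 6 genes, rpl-11.1, rpl-11.2, rpl-24.1, rpl-24.2, rpl-25.1 and rpl-25.2, are described here. They were picked by sequence name (T22F3.4, F07D10.1, D1007.12, C03D6.8, F55D10.2 and F52B5.6), and they are 6 of 20687 genes. Their messenger RNA was counted by CEL-Seq, a method that reads the 3′ ends of polyadenylated RNA from very small amounts of material, in 139 single embryos. All embryos were untreated, were taken from cut-open adults, and were frozen at a labelled time that runs from -50 to 840 min relative to the 4-cell stage. The labels give no strain. Each labelled time is held by few embryos, so the embryos were set in 7 windows of labelled time, with 17 embryos in T1 (-50 to 30 min), 11 in T2 (40 to 100 min), 13 in T3 (110 to 190 min), 30 in T4 (200 to 290 min), 18 in T5 (300 to 390 min), 25 in T6 (400 to 590 min) and 25 in T7 (600 to 840 min).

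The embryos had between 12338 and 4557314 gene counts each (median 692649), and 13 had under 100000. The title numbers fall into 5 runs in which the labelled times start again, called blocks here. The labels name no batch. Block 5 covers -50 to 420 min in 45 embryos, block 1 covers 30 to 840 min in 50 embryos and holds every T7 embryo, and blocks 2, 3 and 4 hold 20, 12 and 12 embryos. Unaligned reads made up a median of 56.6% of a library in block 1 and of 26.1% to 37.0% in the other blocks. In 7 embryos there was a time, predicted from the expression of the other embryos, over 100 min from the label: 4 of block 1 labelled 240 or 250 min, and 3 of block 2 labelled 200, 340 and 400 min whose predicted times were 790 or 800 min. Results are therefore given over all embryos and within block 5, or block 1 for T7.

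Ribosomes are built from ribosomal RNA and about equal amounts of each ribosomal protein, and most animals use 1 gene for each of these proteins, so an animal that carries duplicates can use different copies in different cells or at different times. RPL11 sits beside the 5S ribosomal RNA in the large subunit, RPL24 lies at the face that meets the small subunit, and RPL23A, the protein that rpl-25.1 and rpl-25.2 encode, lies at the exit of the tunnel through which new protein leaves. An early worm embryo starts with RNA laid down by the mother. In whole embryos, fewer cells that express a gene and less RNA per cell cannot be told apart.

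The pairs differ in how alike the copies are in the annotation (Ensembl 115, WBcel235, used for names and gene structure only). The rpl-11.1 gene is on chromosome V and rpl-11.2 is on chromosome X, and both have a coding length of 588 bases for 196 amino acids. The rpl-25.1 gene is on chromosome X and codes for 147 amino acids, and rpl-25.2 is on chromosome I and codes for 146. RefSeq names them rpl-23A.1 and rpl-23A.2. The rpl-24.1 and rpl-24.2 genes are both on chromosome I and code for 159 and 162 amino acids. RefSeq names rpl-24.1 rpl-24, and it names rpl-24.2 rsl-24D1, after the human protein RSL24D1, whose yeast counterpart Rlp24 is a factor that binds the large subunit while it is being assembled and is later replaced by Rpl24. By that name the rpl-24 genes are a ribosomal protein and an assembly factor, not copies of 1 protein. Where copies are near-identical, reads may be split between them or lost at counting. The counting line for reads with more than 1 alignment held 0 reads, so the size of this effect cannot be read from the table. The rpl-24.2 gene overlaps C03D6.1 on the other strand, and rpl-24.1 contains small RNA genes on its own strand.

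All 6 genes were well covered. Over the 139 embryos the mean level was 1308 CPM (the gene's count scaled to a fixed total of gene counts) for rpl-24.1, 1162 CPM for rpl-11.2, 566 CPM for rpl-25.1, 535.5 CPM for rpl-25.2, 308 CPM for rpl-11.1 and 207 CPM for rpl-24.2. Each was counted in 136 to 138 embryos. All 6 passed the filter on low counts in each comparison of consecutive windows. Across the 7 windows together, edgeR's quasi-likelihood test gave adjusted p-values from 3.82e-31 for rpl-11.2 to 7.80e-06 for rpl-11.1, in a test that called 93.8% of all 9923 genes.

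**Figure D1:**
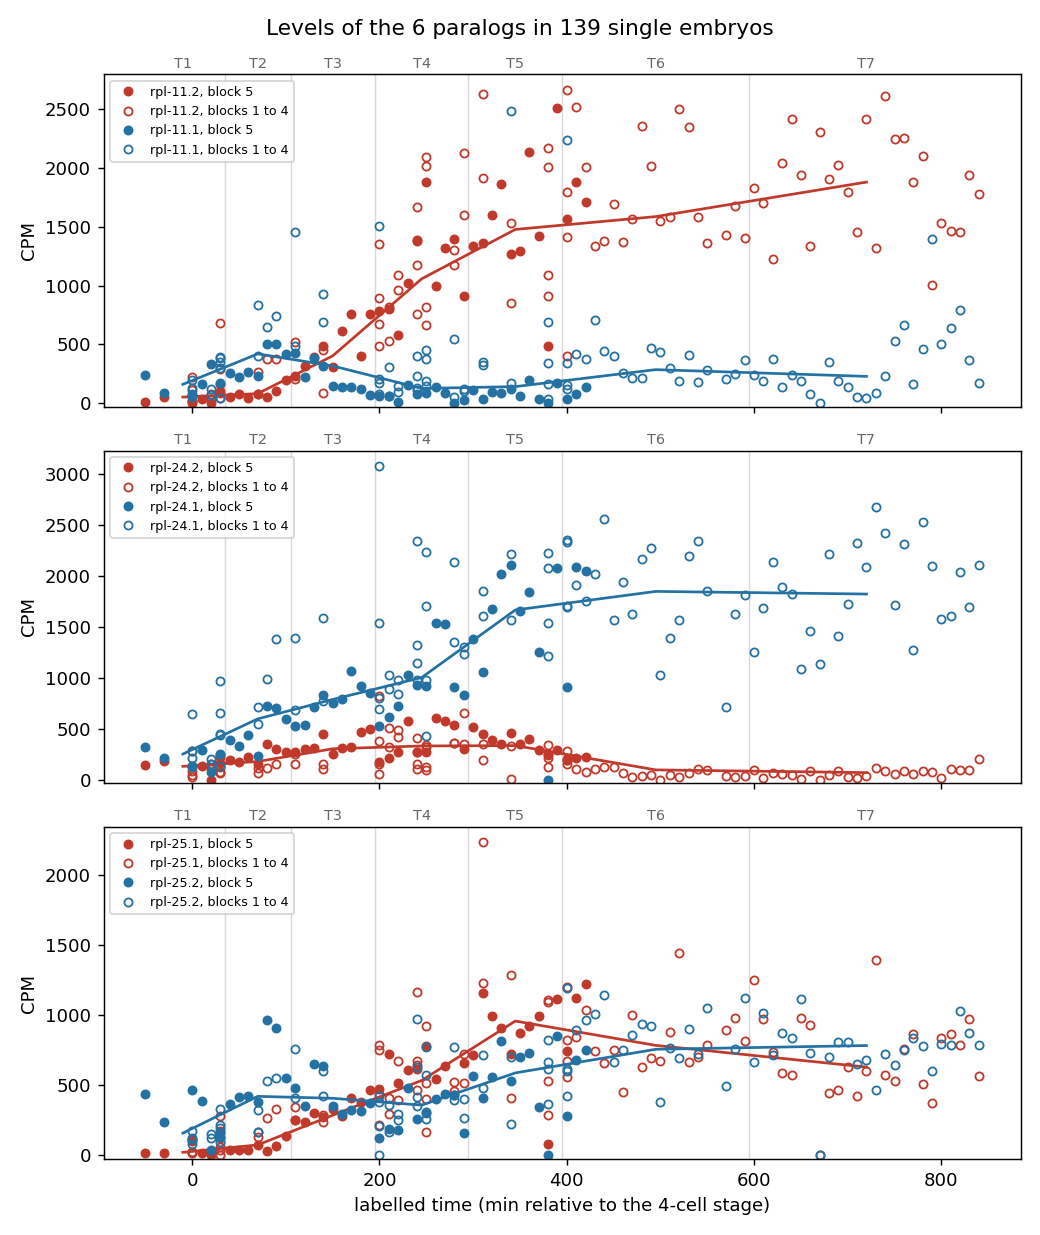
Level of each gene in CPM (vertical axis) against labelled time in minutes (horizontal axis) in 139 embryos, 1 panel per pair; filled points are block 5, open points are blocks 1 to 4, and lines join the medians of the 7 windows. The rpl-11.2 and rpl-11.1 points cross in T3 and separate after it, rpl-25.1 meets rpl-25.2 in T3 and T4, and rpl-24.2 stays below rpl-24.1 throughout.

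The rpl-11 pair exchanged places between T2 and T4. The X-linked copy rpl-11.2 averaged 116 ± 167 CPM at T1, 156 ± 128 CPM at T2, 426 ± 204 CPM at T3, 1156 ± 468 CPM at T4, 1579 ± 580 CPM at T5, 1727 ± 491 CPM at T6 and 1841 ± 416 CPM at T7 (SD over embryos; n as above). The copy on chromosome V, rpl-11.1, averaged 188 ± 122 CPM at T1, 458 ± 213 CPM at T2, 425.5 ± 398 CPM at T3, 204 ± 280 CPM at T4, 304.5 ± 570 CPM at T5, 370 ± 417 CPM at T6 and 329 ± 306.5 CPM at T7. The SDs of rpl-11.1 from T4 on are close to or above its means, and a few embryos were far above the rest. Its medians were 420 CPM at T2, 318 CPM at T3, 126 CPM at T4 and 141.5 CPM at T5.

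Between consecutive windows a gene was called when edgeR's quasi-likelihood test gave a Benjamini-Hochberg adjusted p under 0.05 over all genes tested and a change of at least 2-fold. In T3 against T2, rpl-11.2 was called higher, by 1.23 ± 0.38 on the log2 scale (SE, adjusted p = 0.0166), where 10.4% of all genes were called higher and 14.1% lower. The difference for rpl-11.1 was -0.28 (adjusted p = 0.655). In T4 against T3, rpl-11.2 was called higher again, by 1.46 ± 0.28 (adjusted p = 4.42e-05), where 13.6% of all genes were called higher. In the same comparison rpl-11.1 was called lower, by -1.27 ± 0.39 (adjusted p = 0.00912), where 8.12% of all genes were called lower. Of the 6 genes only rpl-11.1 was called lower between these windows.

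Within block 5 the change in T3 against T2 was larger than over all embryos. There rpl-11.2 had 233 to 761 CPM in the 9 embryos of T3, against 42.9 to 199.7 CPM in the 7 embryos of T2. The change was 2.20 ± 0.35 on the log2 scale (adjusted p = 8.17e-05, edgeR), where 19.6% of all genes were called higher and 19.8% lower within block 5. The rpl-11.1 level averaged 219 ± 128 CPM in T3, against 343 ± 126.5 CPM in T2, and its difference of -0.87 ± 0.36 was just outside the threshold (adjusted p = 0.0527). In T4 against T3 it averaged 69.9 ± 50.7 CPM, against 219 ± 128 CPM, and was called lower by -1.42 ± 0.37 (adjusted p = 0.00402), where 12.1% of all genes were called higher and 11.8% lower. The rpl-11.2 change there was 1.17 ± 0.24 (adjusted p = 0.000404), smaller than the 1.46 over all embryos. Of the 10 T4 embryos of block 5 only 3 had at least 500000 gene counts, and all 9 of its T3 embryos did. With these embryos alone, a choice made after the values were seen, rpl-11.2 was still called higher, by 1.23 ± 0.30 (adjusted p = 0.00835), and rpl-11.1 was not called, at -0.80 ± 0.49 (adjusted p = 0.230).

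The copies were also set against each other within each embryo, which does not use the library total. In embryos with at least 20 counts for the pair, the share of pair counts that came from rpl-11.2 had a median of 26.2% at T1, 24.0% at T2, 58.7% at T3, 89.1% at T4, 92.2% at T5, 85.7% at T6 and 90.8% at T7. No embryo of 11 in T2 had more rpl-11.2 than rpl-11.1, and 8 of 13 in T3 and 29 of 30 in T4 did. The log2 ratio of rpl-11.2 to rpl-11.1 averaged 0.33 ± 1.87 in T3, against -1.81 ± 0.73 in T2, a difference of 2.14 ± 0.56 (SE; permutation test, two-sided, p = 0.00179, adjusted p = 0.00644 over 18 ratio tests). It averaged 3.01 ± 1.31 in T4, against 0.33 ± 1.87 in T3, a difference of 2.68 ± 0.57 (permutation p = 2e-05, adjusted p = 0.00012). The other 4 differences between consecutive windows had adjusted p-values of at least 0.254. Within block 5 the difference was 3.25 ± 0.52 for T3 against T2 (exact permutation test, n = 9 and 7, adjusted p = 0.000787) and 2.74 ± 0.51 for T4 against T3 (exact permutation test, n = 10 and 9, adjusted p = 0.000487). With at least 500000 gene counts the comparison of T4 with T3 had 3 and 9 embryos and a difference of 1.93 ± 0.57 (exact permutation p = 0.0455, adjusted p = 0.0682 over 6 tests).

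The minute-by-minute order of block 5 places the crossing. The rpl-11.2 share was 4.20% of 548 pair counts at -50 min (95% Wilson interval 2.81% to 6.22%), 10.0% at 80 min and 32.2% at 100 min. It was 35.2% at 110 min (31.0% to 39.6%), 58.7% at 120 min (55.7% to 61.6%) and 50.7% at 130 min (47.6% to 53.8%). After that it was 67.6% at 150 min, 81.7% at 160 min and 91.4% at 190 min, and from 200 min on no block 5 embryo was below 87.1%. So in this block rpl-11.2 was above rpl-11.1 in every embryo with at least 20 pair counts from 120 min on. Dividing each count by the spliced transcript length moved that time to after 130 min. CEL-Seq reads 3′ ends, so counts need not scale with length, and this shift may come from the division alone. These intervals cover counting error only, since the labels name no molecular identifiers and the counts are reads after amplification.

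The other blocks put the crossing at other times. In block 2 the rpl-11.2 share was 26.5% and 29.4% at 110 min, and 8.43% and 39.4% at 140 min. At 140 min the block 5 embryo was at 60.5%. Blocks 3 and 4 hold no embryo between 40 and 190 min. Their embryos at 0 to 30 min with at least 20 pair counts had shares of 53.3% to 63.5% in 4 cases, on 32 to 104 pair counts, and 23.0% in the fifth, on 738 pair counts. Yolk transcripts, described next, differed too. They made up 2.41% of gene counts in the block 2 embryo at 8.43%, 0.405% in that at 39.4%, 3.31% in that at 26.5% and 0.803% in that at 29.4%, and 0.0199% to 0.462% in the T3 embryos of block 5. The part of yolk transcripts, depth or block in these differences was not tested.

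**Figure D2:**
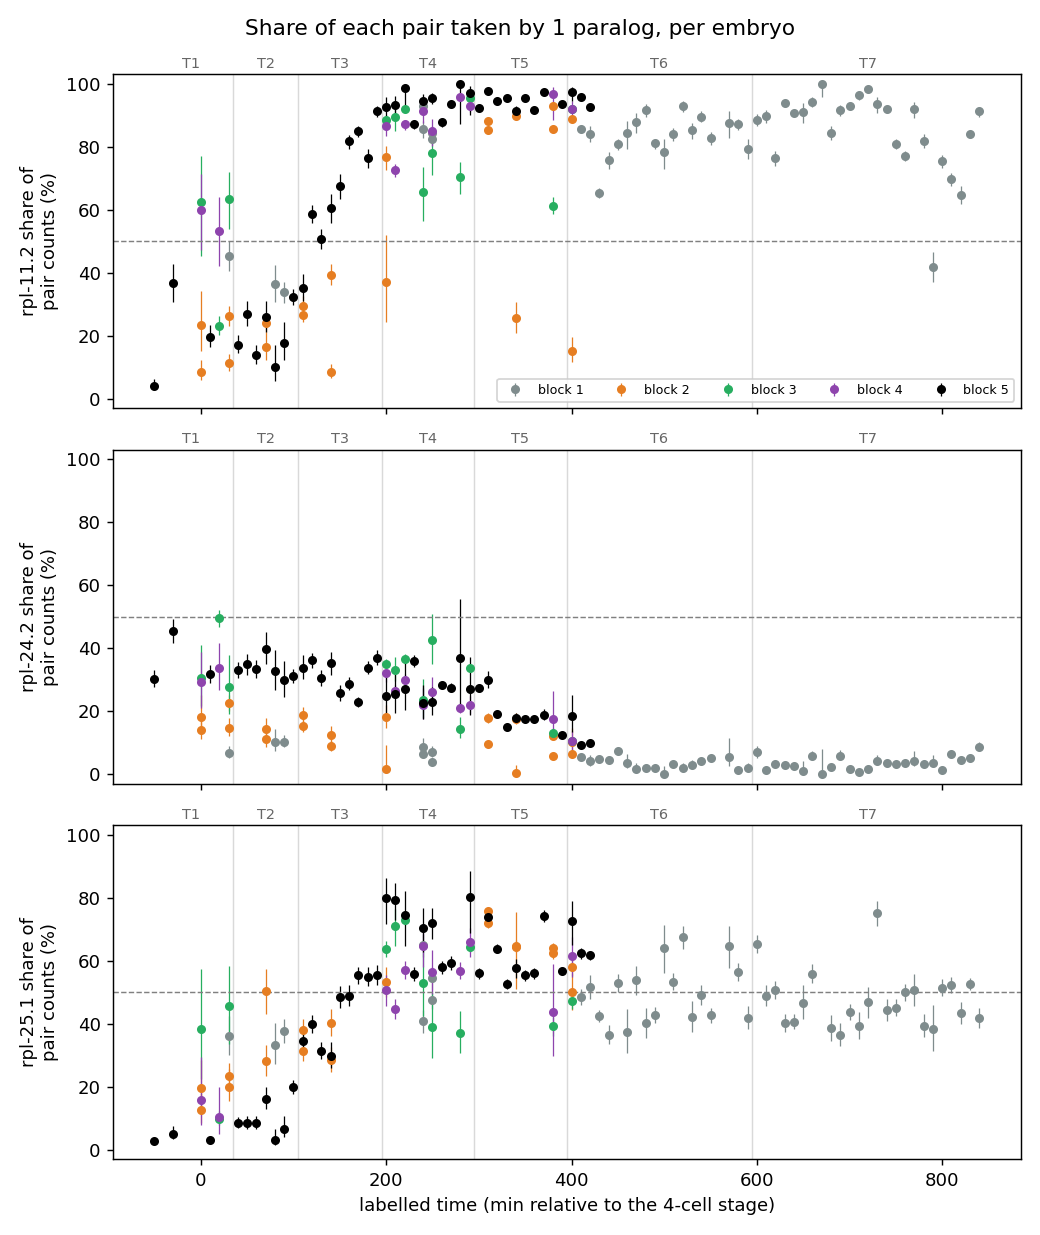
Share of each pair's counts taken by rpl-11.2, rpl-24.2 or rpl-25.1 in percent (vertical axis) against labelled time in minutes (horizontal axis), 1 point per embryo with at least 20 pair counts, coloured by block, with 95% Wilson intervals; the dashed line marks 50%. In block 5 the rpl-11.2 share passes 50% at 120 min and the rpl-25.1 share at 170 min, while no rpl-24.2 share reaches 50%.

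The level of rpl-11.1 in late embryos moved with transcripts of the yolk proteins, and both moved with labelled time. The genes vit-1 to vit-6 encode vitellogenins, which the adult intestine makes and which are loaded into oocytes as protein. All 6 were found in the table, and all 6 had a count in every embryo of T6 and T7. Their summed share of gene counts ranged from 0.159% to 5.07% in T7 and from 0.0116% to 4.82% in T6. Over the 18 embryos of T6 in block 1, the log2 level of rpl-11.1 and the log2 yolk share were correlated (Pearson r = 0.678, permutation p = 0.0017, adjusted p = 0.0102 over 12 relations; Spearman rho = 0.684, permutation p = 0.00225, adjusted p = 0.0135), and r was 0.686 without the 2 embryos farthest from the median yolk share. Within T6 the yolk share was lower at later labelled times (r = -0.61), and so was rpl-11.1 (r = -0.48). With both taken as residuals from a line in labelled time, r was 0.553 (permutation p = 0.0179) and rho was 0.521 (permutation p = 0.0291), with adjusted p-values of 0.0537 and 0.0582 over 6 relations, so the relation no longer passed the threshold. For the other 5 genes in T6 the adjusted p for r was at least 0.0739.

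Over the 25 embryos of T7, all in block 1, r between rpl-11.1 and the yolk share was 0.713 (permutation p = 5e-05, adjusted p = 0.0006 over 12 relations). Spearman's rho was 0.825 (permutation p = 1e-05, adjusted p = 0.00012). These embryos fell into a pair of time ranges, a division made after the values were seen. The p-values within the ranges are therefore descriptive only. From 600 to 740 min (15 embryos) the yolk share was 0.159% to 1.03% and rpl-11.1 had 0 to 380 CPM, and from 750 to 840 min (10 embryos) the yolk share was 0.853% to 5.07% and rpl-11.1 had 163 to 1394 CPM. Across the later 10, r was 0.845 (permutation p = 0.0005, adjusted p = 0.003), r was 0.846 without the 2 farthest, and rho was 0.770 (permutation p = 0.013, adjusted p = 0.0582). Across the first 15, r was 0.328 (permutation p = 0.238, adjusted p = 0.329) and 0.125 without the 2 farthest, and rho was 0.596 (permutation p = 0.0213, adjusted p = 0.0582). For rpl-11.2 in the later 10, r was -0.72 (permutation p = 0.0372, adjusted p = 0.0744), and -0.36 without the 2 farthest.

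The embryos with the most rpl-11.1 were also those with the most yolk transcripts. The highest was the block 2 embryo labelled 340 min, with 2489 CPM of rpl-11.1 and a yolk share of 5.37%. Next came the block 2 embryo at 400 min with 2241 CPM and 4.82%, that at 200 min with 1510 CPM and 4.38%, and that at 110 min with 1455 CPM and 3.31%. The block 1 embryo at 790 min had 1394 CPM and 5.07%. Apart from the embryo at 110 min (800043 gene counts, 41.8% of reads unaligned), these were poor libraries. At 340, 400, 200 and 790 min they had 88778, 124051, 17878 and 173574 gene counts. Unaligned reads made up 87.2%, 73.6%, 84.8% and 75.5%, against medians of 35.0% in block 2 and 56.6% in block 1. The level at 200 min rests on 27 counts of rpl-11.1. The embryos at 340, 400 and 200 min are the block 2 embryos whose predicted time was far from the label. In block 5, where the yolk share stayed between 0.0978% and 0.215% in T6, rpl-11.1 averaged 85.8 ± 48.6 CPM in T6 (n = 3), and in block 1 it averaged 341 ± 135 CPM in T6 (n = 18). The part of adult RNA, or of any other source of yolk transcripts, in the late level of rpl-11.1 was not tested.

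**Figure D3:**
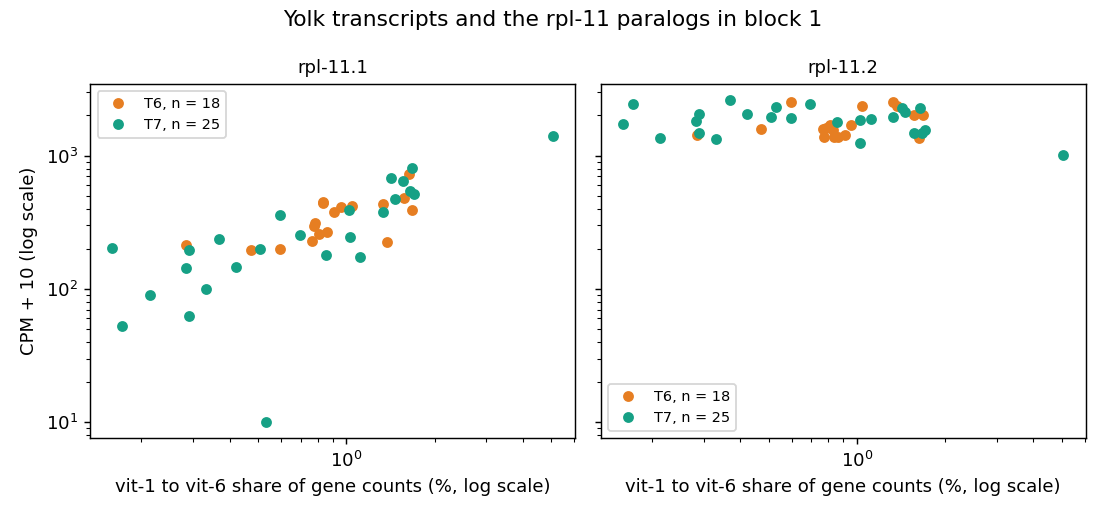
Level of rpl-11.1 (left) and rpl-11.2 (right) as CPM + 10 on a log axis against the summed share of vit-1 to vit-6 in gene counts in percent, also on a log axis, in the block 1 embryos of T6 (n = 18) and T7 (n = 25). In the left panel embryos with a larger yolk share have more rpl-11.1 (r = 0.678 in T6); the T7 embryos from 750 min on have yolk shares of 0.853% or more and most of the higher levels, and in the right panel rpl-11.2 stays between 1002 and 2615 CPM.

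The rpl-25 pair moved toward its X-linked copy in the same windows but, over all embryos, stopped near equal shares. The X-linked rpl-25.1 averaged 59.0 ± 75.7 CPM at T1, 119 ± 101 CPM at T2, 311 ± 71.8 CPM at T3, 570 ± 205 CPM at T4, 925 ± 469 CPM at T5, 839 ± 231 CPM at T6 and 704 ± 295 CPM at T7. Its partner rpl-25.2 averaged 202 ± 128 CPM at T1, 506 ± 241 CPM at T2, 458 ± 152.5 CPM at T3, 372 ± 209 CPM at T4, 560.5 ± 225 CPM at T5, 783 ± 240 CPM at T6 and 746 ± 208 CPM at T7. In T3 against T2, rpl-25.1 was called higher, by 1.19 ± 0.34 on the log2 scale (adjusted p = 0.0102, edgeR). In T4 against T3 it differed by 0.87 ± 0.22 (adjusted p = 0.00193) and in T5 against T4 by 0.81 ± 0.24 (adjusted p = 0.0128), both under the 2-fold needed for a call. The rpl-25.2 differences were -0.39 ± 0.27 in T3 against T2 (adjusted p = 0.292) and -0.24 in T4 against T3 (adjusted p = 0.564).

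Within block 5, rpl-25.1 had 233 to 468 CPM in T3, against 30.3 to 136.9 CPM in T2. It was called higher by 2.22 ± 0.32 (adjusted p = 3.22e-05, edgeR), where 19.6% of all genes were called higher. The rpl-25.2 difference was -0.69 ± 0.29 and just missed the threshold (adjusted p = 0.0525). Later in this block rpl-25.2 averaged 550 ± 254 CPM in T5, against 295 ± 133 CPM in T4, and was called higher by 1.08 ± 0.33 (adjusted p = 0.01003), where 16.2% of all genes were called higher and 9.34% lower. Over all embryos this change was 0.64, and in the block 5 embryos with at least 500000 gene counts it was 0.52 (adjusted p = 0.161), and neither was called.

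The median share of rpl-25.1 in the pair was 15.9% at T1, 16.1% at T2, 39.9% at T3, 58.6% at T4, 62.3% at T5, 51.8% at T6 and 46.0% at T7. The log2 ratio of rpl-25.1 to rpl-25.2 averaged -0.52 ± 0.61 in T3, against -2.38 ± 1.496 in T2, a difference of 1.86 ± 0.48 (permutation p = 0.00037, adjusted p = 0.00166). It averaged 0.63 ± 0.76 in T4, against -0.52 ± 0.61 in T3, a difference of 1.16 ± 0.22 (permutation p = 2e-05, adjusted p = 0.00012). In T6 against T5 the ratio was lower by -0.53 ± 0.19 (permutation p = 0.00909, adjusted p = 0.0273), but within block 5 this difference was 0.29 on 3 against 9 embryos (exact permutation p = 0.409, adjusted p = 0.614). Within block 5 the difference was 2.96 ± 0.40 for T3 against T2 (exact permutation p = 8.74e-05, the smallest that design allows, adjusted p = 0.000524) and 1.59 ± 0.30 for T4 against T3 (exact permutation p = 4.11e-05, adjusted p = 0.000487).

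By minute in block 5, the rpl-25.1 share was 2.64% at -50 min, 8.42% at 40 min, 19.9% at 100 min, 34.5% at 110 min and 29.9% at 140 min. It was 48.6% at 150 min, 48.9% at 160 min and 55.5% at 170 min (95% Wilson interval 52.8% to 58.1%). From 170 min on rpl-25.1 exceeded rpl-25.2 in every block 5 embryo with at least 20 pair counts. The share then moved with library depth: within T4 it was 55.9%, 57.9% and 59.3% in the 3 block 5 embryos with over 1000 pair counts, and 70.3% to 80.3% in the 6 with 61 to 305 pair counts. In these 6 embryos rpl-25.2 had 119 to 300.4 CPM, against 397 to 481 CPM in the other 3. With the embryos of at least 500000 gene counts alone, which keeps these 3 T4 embryos and all 9 T3 embryos, the difference in the ratio was 0.79 ± 0.22, against 1.59 with all, and was not called (exact permutation p = 0.0409, adjusted p = 0.0682 over 6 tests).

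Over all embryos the ratio of the rpl-24 pair changed most in T6 against T5. The level of rpl-24.1, the ribosomal protein, averaged 329 ± 238 CPM at T1, 642.5 ± 325 CPM at T2, 879 ± 307.5 CPM at T3, 1220 ± 593 CPM at T4, 1631 ± 540 CPM at T5, 1820 ± 461 CPM at T6 and 1853 ± 441 CPM at T7. The level of rpl-24.2, the assembly factor by its RefSeq name, averaged 131 ± 77.4 CPM at T1, 195 ± 85.8 CPM at T2, 299 ± 121 CPM at T3, 351 ± 185 CPM at T4, 310.5 ± 124 CPM at T5, 106 ± 76.2 CPM at T6 and 68.5 ± 43.0 CPM at T7. Both were called higher in T2 against T1, rpl-24.1 by 1.32 ± 0.36 (adjusted p = 0.00464, edgeR) and rpl-24.2 by 1.03 ± 0.32 (adjusted p = 0.0126). In T6 against T5, rpl-24.2 was called lower by -1.34 ± 0.31 (adjusted p = 0.000546), where 9.21% of all genes were called lower. It was the only one of the 6 genes called in that comparison.

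The median share of rpl-24.2 in the pair was 29.2% at T1, 31.1% at T2, 28.7% at T3, 25.9% at T4, 17.4% at T5, 4.63% at T6 and 3.30% at T7. It was below 50% in every embryo with at least 20 pair counts. The blocks differed in this share well before T6. In block 1 it was 6.82% in the T1 embryo, 10.3% and 10.4% in the T2 embryos, and a median of 6.76% in the 4 T4 embryos, whose predicted times were over 100 min from the label. In block 2 the median was 16.5% (T1), 12.8% (T2) and 13.8% (T3), and in block 5 it was 31.85%, 33.0% and 33.9% in those windows, and 27.1% in T4. Within block 1 it was 3.36% in T6 and 3.30% in T7. The log2 ratio of rpl-24.2 to rpl-24.1 averaged -4.42 ± 1.16 in T6, against -2.64 ± 1.21 in T5, a difference of -1.78 ± 0.37 (permutation p = 2e-05, adjusted p = 0.00012). In T5 against T4 the difference was -0.79 ± 0.36 (permutation p = 0.0261, adjusted p = 0.0672).

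Block and time cannot be told apart in most of this late change, since 18 of the 25 T6 embryos and all T7 embryos are in block 1, which holds no T5 embryo. At 410 min rpl-24.2 had 112 CPM in block 1 and 217 CPM in block 5, and at 420 min it had 74.7 CPM in block 1 and 225 CPM in block 5. Within block 5, T6 averaged 216.5 ± 8.23 CPM (n = 3), against 376 ± 86.9 CPM in T5 (n = 10), and the edgeR difference of -0.66 ± 0.32 was not called (adjusted p = 0.206), where 3.68% of all genes were called higher and 1.77% lower. With the block as a covariate it was -0.55 (adjusted p = 0.573). The ratio within block 5 differed by -0.76 ± 0.41 in T6 against T5 (exact permutation test, n = 3 and 9, adjusted p = 0.133). In T5 against T4 it differed by -0.73 ± 0.20 (exact permutation test, n = 9 and 10, adjusted p = 0.00686). With the block 5 embryos of at least 500000 gene counts that difference was -0.90 ± 0.25 and was not called (exact permutation test, n = 9 and 3, p = 0.0227, adjusted p = 0.0682 over 6 tests). The rpl-24.2 level moved with depth within T4 of block 5. It was 582, 612 and 578 CPM in the deep embryos at 230, 260 and 270 min, and 175 to 537 CPM in the others. In that block the rpl-24.2 share was 27.4% at 300 min, 30.0% at 310 min, 19.1% at 320 min, 14.9% at 330 min, 12.3% at 390 min and 9.88% at 420 min.

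Genes that act in or on the making of ribosomes (biogenesis genes) were read beside rpl-24.2. They are not all assembly factors and need not act in the same direction. Of 31 biogenesis genes named for this purpose 27 were in the table, among them fib-1, which encodes fibrillarin. In T6 against T5, 25 were tested, 11 were called lower and 0 higher, with a median log2 fold change of -0.83, against -0.07 for all genes, of which 9.21% were called lower and 16.9% higher. The lowest were nol-6 at -1.60 and pro-1 at -1.53. Within block 5 only rbd-1 and rpoa-49 were called lower, where 1.77% of all genes were, and the median was -0.61. In T3 against T2, where 10.4% of all genes were called higher, 4 were, namely nol-6 by 1.86, rrp-1 by 1.58, pro-1 by 1.42 and ncl-1 by 1.19. In T2 against T1, where 14.5% of all genes were called lower, ncl-1 and rpoa-2 were, and in the other 3 comparisons 0 were called.

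The first comparison was shared by nearly the whole ribosome. In T2 against T1, 5 of the 6 genes were called higher, all but rpl-11.2, where 15.1% of all genes were called higher and 14.5% lower. The changes were 1.77 ± 0.32 for rpl-25.2 (adjusted p = 8.10e-05, edgeR), 1.66 ± 0.35 for rpl-11.1 (adjusted p = 0.000469) and 1.61 ± 0.55 for rpl-25.1 (adjusted p = 0.0214), beside the rpl-24 genes above. The rpl-11.2 difference was 0.87 ± 0.55 (adjusted p = 0.211). Of 74 other ribosomal protein genes tested, 71 were called higher and 0 lower, with a median log2 fold change of 1.45, against -0.04 for all genes. Within block 5, 27 of the 74 and 4 of the 6 were called higher, the 4 being rpl-11.1, rpl-11.2, rpl-24.1 and rpl-25.2, where 13.9% of all genes were called higher and 12.1% lower. There rpl-11.2 changed by 1.76 ± 0.59 (adjusted p = 0.0322).

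After T2 several of the 6 genes lay outside the range of the other ribosomal protein genes. In T3 against T2 the 74 other ribosomal protein genes had a median log2 fold change of 0.18, from -0.50 for ubq-2 to 1.06 for rps-22, which alone was called. The values of rpl-25.1 and rpl-11.2 lay above all 74, over all embryos and within block 5. Within block 5 the values of rpl-11.1 and rpl-25.2 were below all 74, and over all embryos they were above 2 and 1 of them. In T4 against T3 the others had a median of 0.52, from -0.62 for rpl-12 to 1.09 for rpl-37, and 4 were called higher (rpl-26, rpl-36, rpl-37 and rps-1) and 0 lower. There rpl-11.1 was below all 74 over all embryos and within block 5, and rpl-11.2 was above all 74 over all embryos and above 73 within block 5.

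In T5 against T4, where 8.80% of all genes were called higher and 7.36% lower, none of the 6 was called, and of the 74 others rpl-36.A and rps-22 were. Within block 5, 14 of the 74 were called higher in that comparison, and rpl-25.2 among the 6, where 16.2% of all genes were. With the block 5 embryos of at least 500000 gene counts 0 of the 74 and none of the 6 were called higher. In T6 against T5, where 16.9% of all genes were called higher, rps-15 alone of the others was called, and rpl-24.2 was below all 74. Over all embryos rpl-24.2 was also below all 74 in T5 against T4 (-0.065) and in T7 against T6 (-0.26). Within block 1, however, it was above 58 of the 74 in T7 against T6 (0.30). In T7 against T6, where 13.3% were called higher and 15.6% lower, none of the 6 and none of the 74 was called by edgeR. Within block 1, where 12.6% of all genes were called higher and 617 of 5572 genes lower in that comparison, none of the 6 was called.

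**Figure D4:**
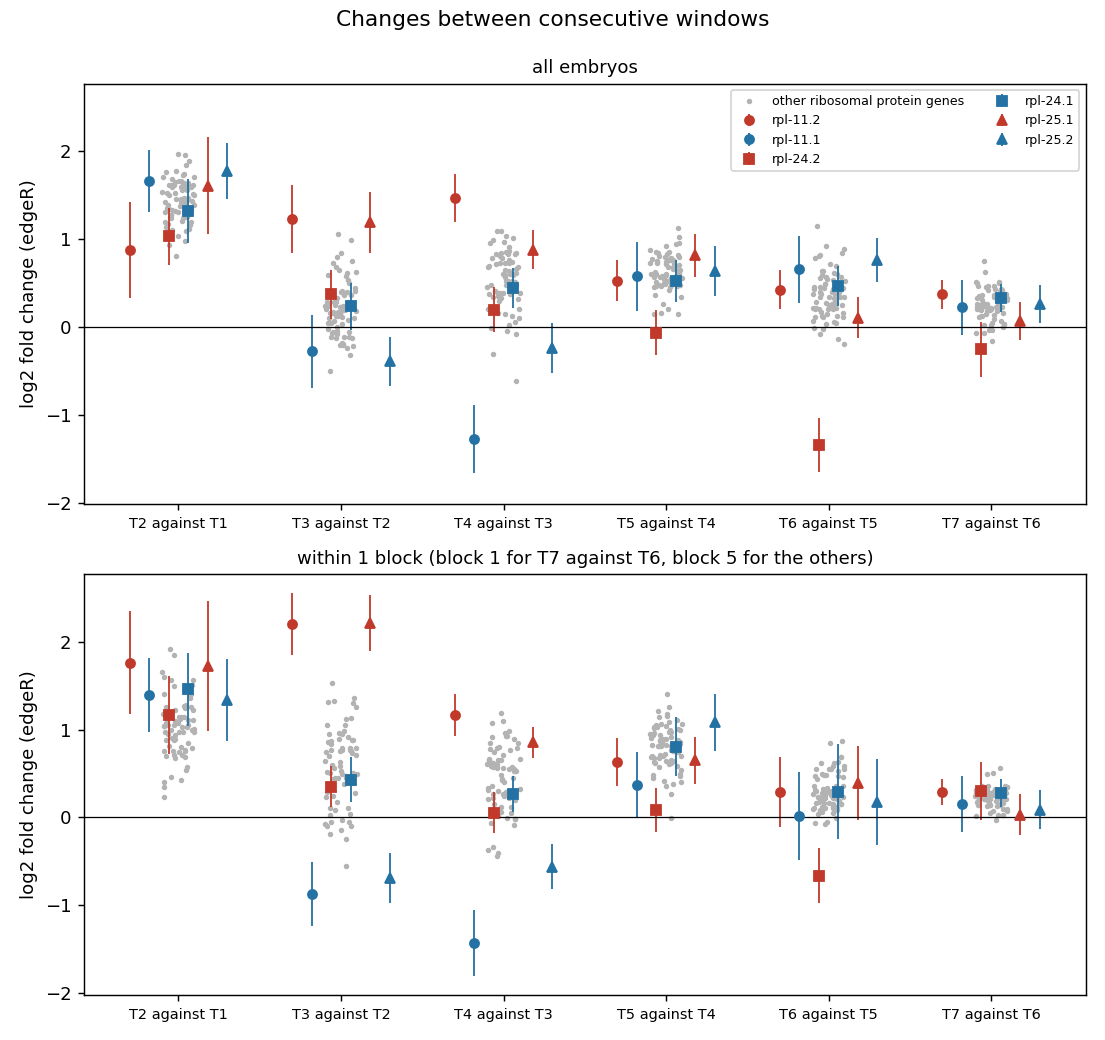
Log2 fold change by edgeR (vertical axis) in each comparison of consecutive windows (horizontal axis), over all embryos (top) and within block 5, or block 1 for T7 (bottom); coloured symbols with SE bars are the 6 genes and grey points are the 74 other ribosomal protein genes. In T3 against T2 rpl-11.2 and rpl-25.1 lie above every grey point in both panels, and in T6 against T5 rpl-24.2 lies below every grey point in both.

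Both genes on the X chromosome, rpl-25.1 and rpl-11.2, are those that were called higher in T3 against T2. Of 677 X-linked genes tested there, 165 (24.4%) were called higher and 36 (5.32%) lower. Of all genes, 10.4% were called higher and 14.1% lower. The X-linked median log2 fold change was 0.54, against -0.05 for all genes. Within block 5, 287 of 757 (37.9%) were called higher, where 19.6% of all genes were. The X-linked genes called higher were 26.8% of those tested in T2 against T1, where 15.1% of all genes were. In T4 against T3 they were 185 of 767, where 13.6% of all genes were. These are counts without a test. The 8 germline genes (such as pgl-1 and nos-2, which act in the germ cells) were read for rpl-11.1: their summed share had a median of 0.214% at T1, 0.0933% at T2, 0.0260% at T3, 0.0166% at T4, 0.0134% at T5, 0.0313% at T6 and 0.0335% at T7. Of the 8, 5 were called lower in T2 against T1, where 14.5% of all genes were. In T3 against T2 it was 4 of 7 tested, where 14.1% of all genes were called lower, and in T4 against T3 it was 2 of 5, where 8.12% were. In T6 against T5 glh-1 was the 1 of 6 called higher, where 16.9% of all genes were. The part of germline RNA in the rpl-11.1 level was not tested.

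Across the 139 embryos the copies of a pair did not track each other closely. As a description over log2(CPM + 10), Pearson's r was -0.04 between the rpl-11 copies, -0.05 between the rpl-24 genes and 0.560 between the rpl-25 copies, and within the 45 embryos of block 5 it was -0.43, 0.569 and 0.268. All such values share libraries, depth and the course of development. Among 6358 genes with a mean of at least 20 CPM, rpl-11.2 was most like iff-2 (r = 0.904), which encodes a translation factor of the eIF5A family, followed by rpl-6 (0.895) and rpl-1 (0.893). The closest to rpl-25.1 were rpl-15 (0.878), rps-24 (0.869) and rps-0 (0.868), and the closest to rpl-24.1 were rpl-33 (0.904), rpl-35 (0.879) and rps-10 (0.870). For rpl-25.2 they were rla-2 (0.792), rps-12 (0.767) and mrpl-55 (0.759), a mitochondrial ribosomal protein gene.

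For the remaining genes, those closest to rpl-11.1 over all embryos were mtl-2 (0.708), which encodes a metallothionein, dct-16 (0.659) and T15B7.1 (0.630), and for rpl-24.2 they were hil-3 (0.810), an H1-like histone gene, fbxc-51 (0.797) and ceh-86 (0.796). Within block 5 these neighbours were other genes. For rpl-11.1 they were dss-1 (0.832), M106.7 (0.830) and tsr-2 (0.828), and for rpl-24.2 they were selt-1.1 (0.822), C37A2.7 (0.809) and rps-12 (0.803), a ribosomal protein gene. For rpl-11.2 they were rps-27 (0.970), iff-2 (0.962) and rps-13 (0.9499), for rpl-24.1 rpl-34 (0.917), rpl-33 (0.915) and rps-10 (0.908), for rpl-25.1 iff-2 (0.955), rps-13 (0.948) and icl-1 (0.9375), and for rpl-25.2 rla-2 (0.9105), C14B9.10 (0.874) and nuo-6 (0.8565).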

How the data were processed

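Unnormalized counts of reads were deposited by the authors as 1 table with a column for each embryo. Of its 20784 lines, 20687 are genes, 92 are spike-in RNAs and 5 are counters that name no gene. The counters held 52.6% of reads and were left out of library sizes and tests. Per the submitters' processing notes HTSeq 0.5.4p3, Bowtie2 2.1.0 and CASAVA 1.8 were used, in no stated order. Build and strand setting are not given in the sources used here. Nothing in the labels says that embryos of a window are separate cultures, so p-values measure the spread between these embryos. The 6 genes, the gene lists and the tests were chosen with earlier results of these data known.

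Consecutive windows were compared with edgeR 4.0.16 (TMM normalization, filterByExpr with a minimum count of 10, quasi-likelihood F-test, limma 3.58.1) in R 4.3.3. The SE of a log2 fold change was taken from its F value. Pair ratios, as log2 of counts + 1, were compared with permutation tests (100000 resamples, or exact where a group had under 10 embryos) in scipy 1.17.1, adjusted over 18 tests. Blocks of title numbers were defined from the order of labelled times. The predicted time is that of the best-matching mean profile of the other embryos, weighted over a Gaussian with an SD of 20 min. Named were the 6 genes, the 3 genes most correlated with each, the extreme ribosomal protein genes of a comparison, and list members where at most 5 rose or fell. An edgeR test on counts simulated at the depths and fitted spread of T3 against T2 recovered most of the genes given a change above 2-fold. The simulation held no blocks and no course of time, so it does not bear on either. DESeq2 1.42.0, other scaling, no filter, block as a covariate, single blocks and embryos left out were tried, and, chosen after seeing the data, deep embryos of block 5 (at least 500000 gene counts) and the yolk relation with labelled time.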

Additional observations from a re-analysis of the deposited data

Results flagged for a closer look

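Values were looked at for embryos far from the others in block 5, in groups of 4 to 10 embryos of 1 window from T1 to T5. Each group held the levels of 1 gene or the ratios of 1 pair, so groups share embryos and counts. Of 42 groups, 5 held such an embryo, all of them groups of 1 gene. Chance would give about 2.1 if the 42 were separate, which they are not. In block 5, the embryo at 100 min had the highest rpl-11.2 (199.7 CPM, next 107 CPM) and the highest rpl-25.1 (136.9 CPM, next 72.5 CPM) of the 7 embryos of T2. It is the latest embryo of that window. The embryo at 380 min was the lowest of 10 in T5 for rpl-24.1 (0 CPM, next 1056 CPM) and rpl-25.1 (81.05 CPM, next 714 CPM), and it had 12338 gene counts, the fewest of all 139. The embryo at 20 min was the lowest of 6 in T1 for rpl-24.2 (0 CPM, next 133 CPM), and it had 27138 gene counts.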

How the results depend on the processing

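All 10 calls of a member kept their direction under every alternative, and 65 of their 72 alternative values stayed past the threshold. Those lost were rpl-24.2 in T2 against T1 (DESeq2, RLE scaling and block 5), rpl-25.1 in T2 against T1 (block 5), rpl-11.1 in T4 against T3 (deep embryos of block 5, at least 500000 gene counts, chosen after seeing the data; members called lower 0) and rpl-24.2 in T6 against T5, so that members called lower there were 0 with block as a covariate and 0 within block 5. Members called higher were 1 in T5 against T4 with block as a covariate and within block 5 (rpl-25.2) and without the embryos of doubted time (rpl-25.1), and 1 in T6 against T5 (rpl-11.1) with DESeq2, without shallow embryos and without those of doubted time. RLE scaling moved the median of all genes by 0.13 in T3 against T2, -0.14 in T5 against T4, -0.13 in T6 against T5 and -0.21 in T7 against T6. It changed higher against lower calls to 1034 and 943, from 1171 and 639, in T6 against T5, and to 618 and 1118, from 704 and 826, in T7 against T6.

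Within block 5, the other ribosomal protein genes called higher were 27 in T2 against T1, 10 in T3 against T2, 14 in T5 against T4 and 0 in T6 against T5. In that order, 13.9%, 19.6%, 16.2% and 3.68% of all genes were called higher within block 5. With RLE scaling 1 other ribosomal protein gene was called higher in T5 against T4. Biogenesis genes called lower within block 5 were 0 in T2 against T1, 1 in T4 against T3 (with 1 higher) and 2 in T6 against T5, and with RLE 2 in T7 against T6. In the deep embryos of block 5, 24 other ribosomal protein genes and 1 biogenesis gene were called higher in T4 against T3. In T5 against T4 there, 0 other ribosomal protein genes were called higher and 1 biogenesis gene lower.

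The rpl-11 ratio difference in T2 against T1 was 0.00295 with at least 100 pair counts and 0.40 within block 5, and in T6 against T5 it was 0.25 within block 5 and -0.80 without doubted times (adjusted p = 0.0426). The rpl-24 ratio difference was -0.15 within block 5 in T3 against T2 and 0.21 without doubted times in T4 against T3. In T5 against T4 it passed the threshold at -0.78 with a pseudocount of 5, -0.87 with at least 100 counts, -0.73 within block 5 and -0.99 without doubted times. It was -0.76 within block 5 in T6 against T5 and 0.0271 within block 1 in T7 against T6. The rpl-25 ratio difference in T5 against T4 was -0.60 within block 5 and -0.0765 without doubted times, and in T6 against T5 it was 0.29 within block 5. In the deep embryos of block 5 the T4 against T3 differences were 1.93 (rpl-11) and 0.79 (rpl-25), neither past the threshold. The causes were not tested.

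Differences that were not called changed sign for rpl-11.1 in T5 against T4 (DESeq2 -0.21) and T7 against T6 (DESeq2 -0.0835, RLE -0.0828). They did so for rpl-24.2 in T4 against T3 (block covariate -0.0784), T5 against T4 (block covariate 0.19, block 5 0.0859, without shallow embryos 0.0244) and T7 against T6 (block 1 0.30). With the deep embryos of block 5 they did so for rpl-11.1 in T5 against T4 (-0.26) and rpl-25.2 in T4 against T3 (0.0637). For rpl-25.1 they did so in T6 against T5 (no filter -0.0476, without shallow embryos -0.11) and T7 against T6 (DESeq2 -0.15, RLE -0.16).

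Over all genes, those called higher without a filter were 3450, 1242, 2372, 1951, 3370 and 2871 in the 6 comparisons in order, against 852, 639, 855, 588, 1171 and 704 with it, and those called lower were 1759, 1628, 1392, 1582 and 2465 from T3 against T2 on, against 869, 510, 492, 639 and 826. Within block 5, T3 against T2 had 1307 higher and 1323 lower, T5 against T4 had 1072 higher (deep embryos 1438), T4 against T3 had 844 lower with deep embryos alone, and T6 against T5 had 328 and 158. With block as a covariate, T4 against T3 had 402 higher, T5 against T4 had 1056 higher, and T6 against T5 had 91 and 27. Without doubted times T5 against T4 had 1201 higher and 739 lower, and DESeq2 called 761 lower in T5 against T4 and 1052 in T6 against T5. The 24 alternatives of the test across 7 windows kept all 6 genes past the threshold. Depth limits T1 most, where 6 of 17 embryos had under 100000 gene counts. No paired analysis was possible because the labels give windows no shared replicate numbers.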
